A study of Mus musculus with 12 samples.

Results

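The miRNAs described here are the star strands of the rodent TaqMan low-density array (TLDA), the miRNAs whose assay name ends with an asterisk. The deposited table numbers its 593 assays and does not name them. A name was given where the CT values of an assay equalled, uniquely, the values that the study printed beside a miRNA name, which named 270 assays. Of these, 66 names ended with a star. The names miR-106b* and miR-135a* and those starting with miR-297, miR-466, miR-467 or miR-669 were set aside by rule, 6 in all, which left 60 star strands. One of them, miR-125b*, was named from 6 printed values because its printed row was broken. All 60 lay on card B of the 2 array cards. A guide strand of the same hairpin was named for 42 of them, 41 guides in all since miR-24 serves both miR-24-1* and miR-24-2*.

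The study followed granulocyte formation in the bone marrow of C57BL/6 mice. Sorted by flow cytometry were Lin- Sca1+ cKit+ cells (LSK), a fraction with the stem and early progenitor cells, and the promyelocytes, myelocytes and granulocytes that come after them. RNA was taken from whole cells, from the cytoplasm and from the nucleus of each. Each of these 12 groups is 1 sample of 100 ng of RNA, with no other treatment or genotype, so nothing between stages could be set against the spread of replicates, and there are no tests. The CT is the cycle at which an amplification product crosses its threshold: a lower CT means more template, and 1 cycle is a 2-fold difference at full efficiency. An undetermined well is listed at 40, and any difference taken from such a well rests on that assigned value.

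A miRNA hairpin is cut by Dicer into a short duplex. One strand, the guide, is loaded into an Argonaute protein and pairs with target mRNAs mainly through the seed at its 5′ end, while the other, the passenger or star strand, is usually released and degraded. Some star strands are loaded as well, and their level depends on the transcription of the hairpin, on its processing and on the choice of strand.

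RefSeq mature sequences (build GRCm38.p6) were matched by name for 45 of the 60 star strands, and for 18 of the 20 that reached a CT under 30 in whole cell RNA. The following are the star strands on which the results turn, beside the guides of miR-15a and miR-15b to show how the strands of one hairpin differ. They run 5′ to 3′, and capitals mark the seed, bases 2 to 8.
miR-15a*: cAGGCCAUacugugcugccuca
miR-15a: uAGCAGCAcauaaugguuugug
miR-15b*: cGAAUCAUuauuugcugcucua
miR-15b: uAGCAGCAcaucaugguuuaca
miR-26b*: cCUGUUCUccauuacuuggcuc
miR-30a*: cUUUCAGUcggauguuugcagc
miR-30e*: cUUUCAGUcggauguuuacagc
miR-24-2*: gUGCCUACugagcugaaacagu
miR-27a*: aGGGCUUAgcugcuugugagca
miR-322*: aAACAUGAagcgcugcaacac
miR-503*: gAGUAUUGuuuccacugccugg
miR-20a*: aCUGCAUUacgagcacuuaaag
miR-93*: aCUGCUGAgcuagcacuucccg
miR-744*: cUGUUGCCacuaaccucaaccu
miR-877*: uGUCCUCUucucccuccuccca

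The guides miR-15a and miR-15b had the same seed and 18 equal bases, whereas their star strands had different seeds and 12 equal bases of 22. The guides of miR-27a and miR-27b likewise shared a seed and 20 bases, and miR-27a* and miR-27b* shared no seed and 14 bases. The exceptions were miR-30a* and miR-30e*, with 1 seed and 21 of 22 bases in common, and miR-24-1* with miR-24-2*, with 1 seed and 17 bases in common. Over the 45 star strands there were 43 different seeds, against 35 over the 43 matched guides, and no star seed equalled a guide seed. The first base was U in 25 of the 43 guides and in 6 of the 45 star strands, in which C led with 17 and A with 14. The star came from the 3p arm in 34 hairpins and from the 5p arm in 11.

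Several of these strands lie close together or inside other genes. miR-24-2* (chr8:84208839-84208860, plus strand) starts 154 bases from miR-27a* (chr8:84208685-84208706, plus strand). miR-322* (chrX:53054269-53054289, minus strand) starts 282 bases from miR-503* (chrX:53053987-53054008, minus strand). miR-18a* and miR-20a* (chr14:115044219-115044240, plus strand) are 311 bases apart. Of the 45 matched star strands, 21 fell within the span of a protein-coding gene, among them miR-15b* (chr3:69009813-69009834, plus strand) in Smc4, miR-93* (chr5:138165536-138165557, minus strand) in Mcm7, miR-26b* (chr1:74394360-74394381, plus strand) in Ctdsp1 and miR-30e* (chr4:120772618-120772639, minus strand) in Nfyc. miR-744* (chr11:65734742-65734763, minus strand) lies within Map2k4 and miR-877* (chr17:35960731-35960752, minus strand) within Abcf1. No protein-coding span covered miR-15a* (chr14:61632038-61632059, minus strand) or miR-30a* (chr1:23272315-23272336, plus strand). The annotation used gives gene spans only, so exon or intron is not stated.

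The sorted cells were checked on named markers before the star strands were read. miR-223, a miRNA of maturing myeloid cells, had whole cell CTs of 23.98, 19.5, 17.3 and 16.4 from LSK to granulocytes. The progenitor miRNA miR-196b went the other way, with CTs of 25.9, 29.3, 31.3 and 33.2 in the same order. miR-150, known from lymphocytes, was measured in all 4 stages at CTs of 25.1, 28.8, 25.6 and 25.8. The erythroid markers miR-451 and miR-144 were not among the named assays.

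Most star strands were near the limit of detection. Over all 593 assays the number with a CT under 40 lay between 259 and 288 in whole cell, 263 and 294 in cytoplasmic and 199 and 229 in nuclear samples, and of the 60 star strands 41 to 44, 41 to 52 and 28 to 38 were measured. A CT under 30, the limit the study used for a reliable value, was reached in whole cell RNA by 10, 12, 10 and 17 of the 60 star strands, in the order of maturation. The same limit was met by 31.5%, 35.9%, 38.5% and 43.0% of all named assays. In all, 20 star strands passed it in at least 1 stage, and the lowest whole cell CT of the other 40 was 30.17. The strands just inside the limit were miR-674* with a lowest CT of 29.8 and miR-503* and miR-872*, each with 29.97, and those just outside were miR-18a* with 30.17, miR-28* with 30.2 and miR-193* with 30.9. With the other limits the number was 7 under a CT of 28 and 46 under 35.

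**Figure D1:**
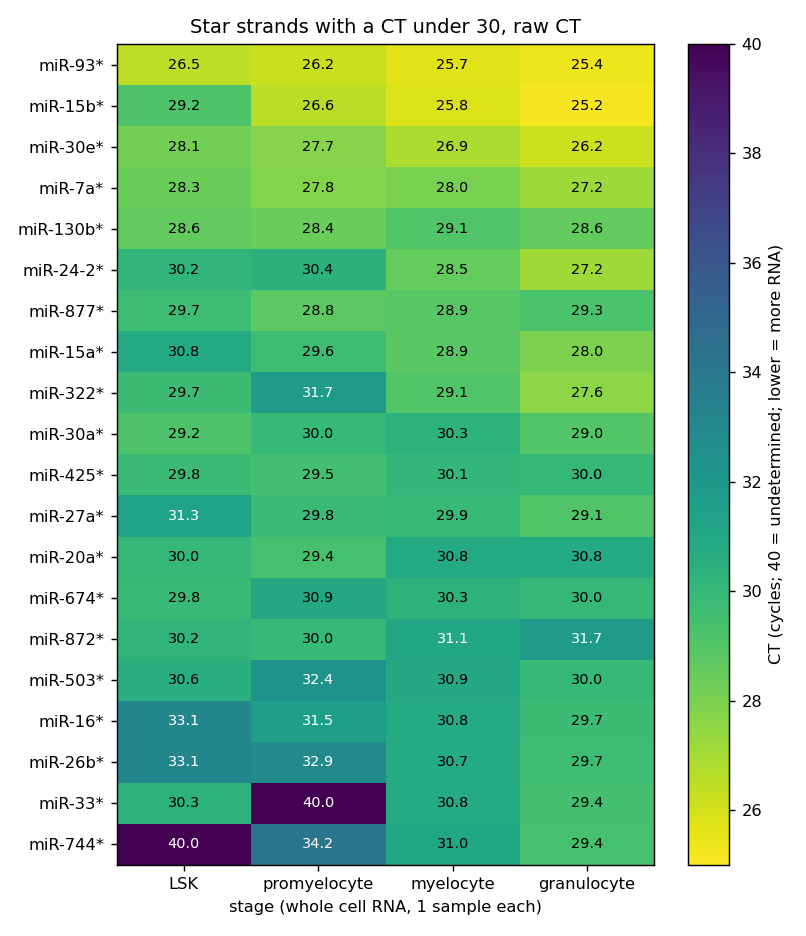
Raw CT (number in each cell, and colour) of the 20 star strands with a CT under 30 in at least 1 of the 4 whole cell samples (columns, 1 sample each), ordered by mean CT; 40 is an undetermined well. miR-93* and miR-15b* have the lowest CTs, 25.4 and 25.2 in granulocytes, and the wells of miR-744* in LSK and miR-33* in promyelocytes are at 40.

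Between LSK and granulocytes the star strands past the 2-fold limit in whole cell RNA were higher, in a share near that of all named assays, and the cytoplasmic samples, given further on, did not show this. Changes in whole cell RNA were scaled by the mean of the last 3 assays of card B, which carry no name here and reached their threshold 0.68 cycles earlier in granulocytes than in LSK. Of 18 star strands with a CT under 30 in either stage, 9 were higher in granulocytes by 2-fold or more and 0 were lower, where the share among all named assays was 55.6% higher and 16.1% lower. The median log2 change was 0.89 over these star strands and 1.31 over the 124 named assays. In RNA of a sorted population, fewer cells with a miRNA and less of it per cell cannot be told apart. The 9 were miR-15a*, miR-15b*, miR-16*, miR-24-2*, miR-26b*, miR-27a*, miR-30e*, miR-322* and miR-744*. Their number was 9 with the mean of card B as the scale, 11 without scaling and 8 without miR-744*, whose LSK well was undetermined.

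The miR-15/16 family, whose guides are known to act on cyclins and BCL2, held 3 star strands, and in whole cell RNA all 3 had a lower CT at each successive stage. miR-15b* had whole cell CTs of 29.2, 26.6, 25.8 and 25.2 from LSK to granulocytes, the largest rise among the star strands with a CT under 30 in LSK (log2 change 3.30). miR-15a* gave 30.78, 29.65, 28.86 and 27.98 (log2 change 2.12). miR-16* gave 33.1, 31.5, 30.8 and 29.7 (log2 change 2.70), so that only its granulocyte value was under 30. The cytoplasmic CTs had no such order, with 29.74, 31.17, 28.58 and 29.01 for miR-15a*, 27.55, 27.87, 25.42 and 25.90 for miR-15b* and 30.98, 30.31, 29.48 and 30.65 for miR-16*. Their cytoplasmic log2 changes from LSK to granulocytes were -0.68, 0.23 and -1.08 with scaling and 0.73, 1.65 and 0.33 without, so that with scaling miR-15a* and miR-16* turned in direction. In whole cell RNA the guides of these hairpins rose by 2.81, 2.80 and 2.74 over the same interval for miR-15a, miR-15b and miR-16.

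In whole cell RNA the scaled steps of star and guide in this family differed in size. From LSK to promyelocytes miR-15b* changed by 2.35 and its guide by 0.48, miR-15a* by 0.88 and its guide by 0.04, and miR-16* by 1.33 and its guide by 0.42 (log2). From promyelocytes to myelocytes the guides changed more, by 2.21 against 0.76 for miR-15b, by 2.65 against 0.80 for miR-15a and by 2.0 against 0.77 for miR-16. The guides are on card A and the star strands on card B, and the mean of each card's assays under 30 in all 4 samples moved differently: card B minus card A was 0.19 cycles in the first of these steps and -1.20 in the second. With each card centred on its own mean, the star of miR-15b was ahead of its guide by 1.68 and that of miR-15a by 0.66 in the first step. In the second step the star minus guide difference went with centring from -1.45 to -0.25 for miR-15b and from -1.85 to -0.65 for miR-15a. In the cytoplasm it was -0.10 and -0.44 at the second step, and -1.68 for miR-16. At the first step the cytoplasmic star of miR-15b was ahead by 0.80 and that of miR-16 by 1.58, and that of miR-15a was behind by 0.18. The star was thus ahead of its guide at the first step in both RNA samples for miR-15b and miR-16, and for miR-15a in whole cell RNA only, where the raw CT of the star went from 30.78 to 29.65 in whole cells and from 29.74 to 31.17 in the cytoplasm.

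**Figure D2:**
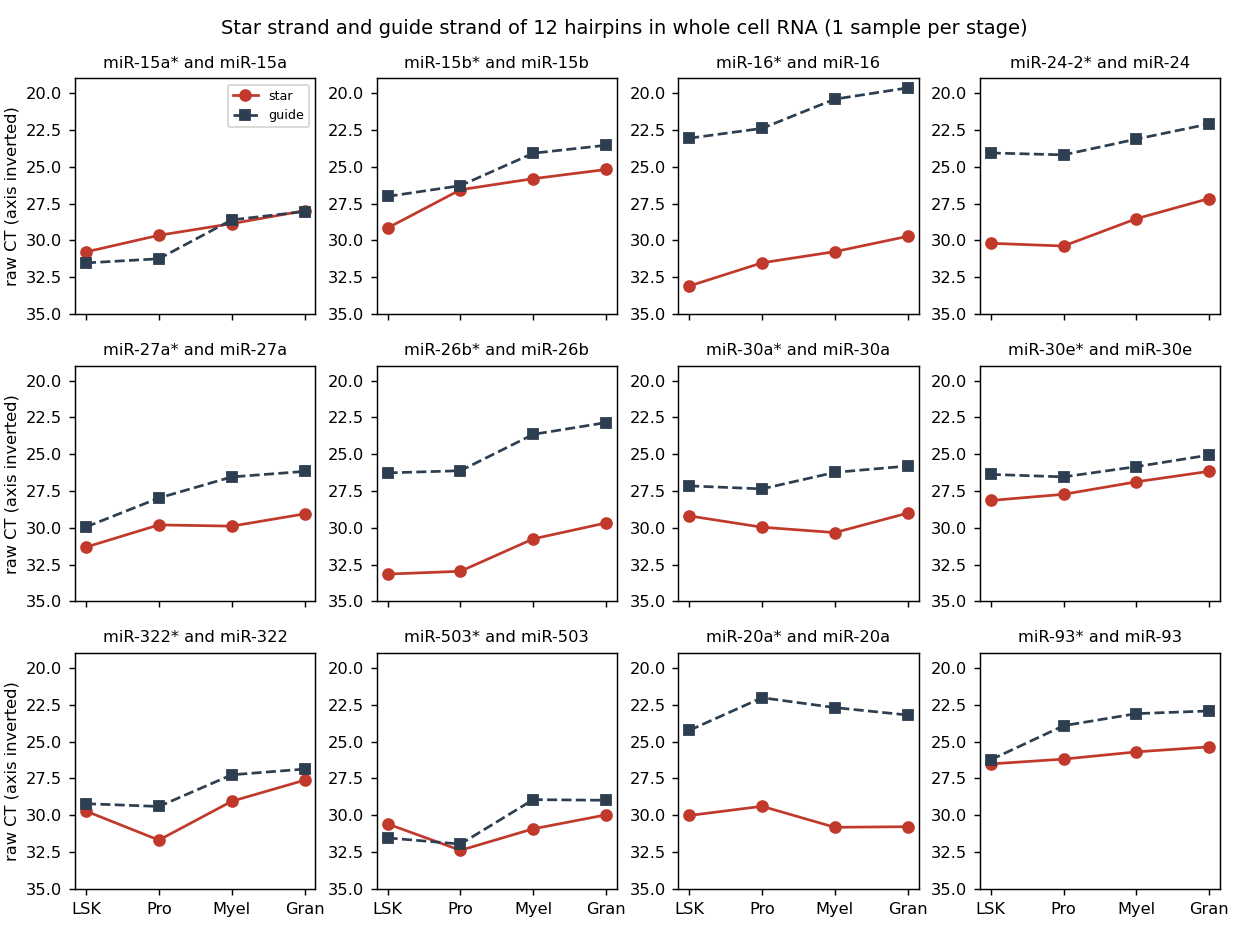
Raw whole cell CT (vertical axis, inverted so that up is more RNA) of the star strand (circles, solid) and guide strand (squares, dashed) of 12 hairpins over the 4 stages, 1 sample each. The star of miR-15b fell from a CT of 29.2 to 26.6 between LSK and promyelocytes while its guide moved from 27.01 to 26.28, and the stars of miR-322 and miR-503 have their highest CT in promyelocytes.

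The miR-24/27 group is transcribed as clusters, with miR-24-2 and miR-27a in one and miR-24-1 and miR-27b in the other, and its star strands were measured in every whole cell sample in the first cluster only. miR-24-2* had CTs of 30.19, 30.38, 28.52 and 27.15 from LSK to granulocytes, a log2 change of 2.37, and miR-27a* had 31.3, 29.8, 29.9 and 29.1, a change of 1.58. miR-27b* went from 33.7 in LSK to 31.5 in promyelocytes and 37.0 in myelocytes and was undetermined in granulocytes, while its cytoplasmic CTs were 32.65, 31.48, 33.18 and 35.10. miR-24-1* was undetermined in all 4 whole cell samples and in all 4 cytoplasmic samples. The assay of the guide miR-24 reads both hairpins and changed by 1.30. In whole cell RNA miR-27a* changed by 1.26 from LSK to promyelocytes and miR-24-2* by 1.87 from promyelocytes to myelocytes. In the cytoplasm without scaling miR-27a* changed by 0.62 and 0.90 at these steps and miR-24-2* by -1.36 and 2.46. From LSK to granulocytes cytoplasmic miR-24-2* changed by -0.94 with and 0.48 without scaling, and miR-27a* by 0.35 and 1.77.

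miR-26b* moved with its guide in raw CT. Its CTs were 33.14, 32.95, 30.75 and 29.66, against 26.3, 26.1, 23.7 and 22.9 for miR-26b, so that the log2 change from LSK to granulocytes was 2.80 for the star and 2.74 for the guide. The gap between the strands stayed between 6.81 and 7.10 cycles in the 4 whole cell samples, the narrowest range of the 18 pairs with a star under 30. With each card centred on its own mean, the star changed by 1.04 more than the guide from LSK to granulocytes. In cytoplasmic RNA the gap ranged from 5.65 to 7.80 cycles.

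The miR-30 stars, nearly identical in sequence, differed in whole cell RNA. miR-30e* went from 28.1 through 27.7 and 26.9 to 26.2 (log2 change 1.30), and miR-30a* was at 29.19, 29.96, 30.32 and 29.00 (log2 change -0.48, and 0.19 without scaling). In the cytoplasm both changes were negative, for miR-30e* -1.61 with and -0.20 without scaling and for miR-30a* -3.95 and -2.54, so the direction of miR-30e* turned. The guides miR-30e and miR-30a changed by 0.64 and 0.67 in whole cell RNA. Whether either assay also reads the other strand was not tested. miR-30b*, the third star of the family, was never under a CT of 33.

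The star strands of the cluster of miR-322 and miR-503, which is linked to arrest of the cell cycle, both had a trough in promyelocytes. miR-322* had CTs of 29.7, 31.7, 29.1 and 27.6, a log2 change of -2.22 from LSK to promyelocytes and of 2.65 from promyelocytes to myelocytes. miR-503* gave 30.59, 32.38, 30.92 and 29.97, with changes of -2.04 and 1.47 at the same steps and all values but the last above 30. Their guides changed by -0.44 for miR-322 and by -0.66 for miR-503 at the first step. In cytoplasmic RNA the stars were also behind their guides at this step, with differences of -1.01 for miR-322 and -0.96 for miR-503.

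The miR-17 family is known to promote proliferation, and its members differed in whole cell RNA from LSK to granulocytes, with a change of -1.15 for the guide miR-92a. miR-93* had the lowest CT of the star strands in LSK, with CTs of 26.5, 26.2, 25.7 and 25.4 and a log2 change of 0.48, while miR-93 went from 26.2 to 22.9 and changed by 2.64. miR-20a* had 30.02, 29.39, 30.82 and 30.77 (log2 change -1.44), and miR-20a changed by 0.37. miR-18a* had its lowest CT, 30.2, in promyelocytes, and was at 31.27, 31.04 and 30.83 in LSK, myelocytes and granulocytes. At the step from LSK to promyelocytes the guides miR-93, miR-20a and miR-18a gained 2.07, 1.97 and 2.93, and the stars 0.08, 0.38 and 0.85. In the cytoplasm the star minus guide difference at this step was -0.62 for miR-93, -2.35 for miR-20a and 0.14 for miR-18a. From LSK to granulocytes cytoplasmic miR-93* changed by -2.18 with and -0.76 without scaling, and miR-20a* by -4.38 and -2.97. miR-19a* was undetermined in all 4 whole cell samples and miR-92a* in all but LSK, although their guides had CTs between 22.5 and 24.5.

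Of the remaining star strands under 30, miR-744* went from an undetermined well in LSK to CTs of 34.17, 30.99 and 29.38. In cytoplasmic RNA it was measured in LSK at 33.5 and reached 30.4 in granulocytes, and its guide, within the same gene, changed by 2.32 in whole cell RNA. miR-33*, from within Srebf2, a regulator of sterol synthesis, was at 30.3 in LSK, 30.8 in myelocytes and 29.4 in granulocytes, and its promyelocyte well was undetermined, where the cytoplasmic sample gave 32.2. miR-872* declined from 30.20 and 29.97 in LSK and promyelocytes to 31.09 and 31.72 in myelocytes and granulocytes.

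With scaling, 5 star strands stayed within 2-fold between all whole cell samples. These were miR-7a*, whose scaled values spanned 0.46, miR-93* (0.58), miR-130b* (0.69), miR-425* (0.91) and miR-877* (0.91, log2). Without scaling, miR-93* changed by 1.16 and miR-7a* by 1.13 from LSK to granulocytes. In the cytoplasm all 5 were lower by more than 2-fold over this interval with scaling. The changes there were -2.14 for miR-7a*, -2.18 for miR-93*, -3.74 for miR-130b*, -2.43 for miR-425* and -2.07 for miR-877*. Without scaling they were -0.72, -0.76, -2.33, -1.02 and -0.65 in the same order. The other 15 of the 20 (17 without scaling) reached a 2-fold difference between some pair of stages, a share to be read against 91.5% of the 129 named assays under 30.

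The steps between neighbouring stages gave fewer calls. From LSK to promyelocytes, of 14 star strands counted, 2 were higher by 2-fold or more, miR-15b* and miR-27a*, against 33.7% of all named assays, and 3 were lower, miR-322*, miR-674* and miR-30a*, against 17.3%. miR-27a* did not pass with the mean of card B as the scale, which left 1 higher. In the cytoplasm miR-15b* and miR-27a* changed by 1.53 and 2.47 with scaling and by -0.32 and 0.62 without. miR-30a* passed at -1.01 and was at -0.77 without scaling. In the cytoplasm miR-322*, miR-30a* and miR-674* were at -1.65, -0.37 and 1.87 with scaling, and at -3.50, -2.22 and 0.01 without. The median change was 0.12, and 0.43 over all 104 named assays. From promyelocytes to myelocytes 2 of 14 rose, miR-24-2* and miR-322*, where 42.0% of all named assays did, and 2 fell, miR-20a* and miR-872*, where 12.5% did. The cards moved in opposite directions at that step, with a mean CT change of 0.77 towards more RNA on card A and of -0.43 on card B, and of the 12 counted card B assays without a star 2 rose and 5 fell. From myelocytes to granulocytes only miR-744* of 17 rose, where 10.8% of the named assays did, and 0 fell, where 6.67% did. From promyelocytes to granulocytes 9 of 19 rose, or 8 without miR-33*, whose promyelocyte well was undetermined, where 52.8% did, and 2 fell, miR-20a* by 1.81 and miR-872* by 2.17, where 21.1% did.

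The cytoplasm gave other counts at these steps, and the counts depended on the scaling. From LSK to promyelocytes 6 of 17 star strands were higher and 1 lower with scaling (31.5% and 16.2% of all named assays), and 2 and 11 without (8.11% and 64.0%). From promyelocytes to myelocytes 1 of 16 was higher and 6 lower with scaling (17.3% and 37.3%), and 6 and 3 without (54.5% and 8.18%). From myelocytes to granulocytes 0 of 13 were higher and 13 lower with scaling (1.83% and 76.1%), and 0 and 2 without (11.0% and 11.0%). From promyelocytes to granulocytes 0 of 15 were higher and 13 lower with scaling (8.18% and 67.3%), the reverse of the whole cell counts, and 7 and 4 without (58.2% and 10.9%).

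Star and guide were then set side by side for the pairs in which both were measured and the star was under 30 in either stage. From LSK to granulocytes 10 of 14 pairs moved the same way. In the other 4, miR-30a*, miR-130b*, miR-425* and miR-503*, the scaled star value was lower and the guide value higher, and without scaling 13 pairs moved the same way. The star change minus the guide change had a median of -0.47 and ran from -2.16 for miR-93* to 1.07 for miR-24-2*. With each card centred on its own mean the median was 0.51, so whether star strands rose less or more than guides in general could not be read from these cards. Across the 14 pairs the changes of star and guide had Pearson's r of 0.71 and Spearman's rho of 0.72, a description of points that share the same 2 RNA samples. From LSK to promyelocytes r was 0.33 over 12 pairs. The guide was ahead by 1 cycle or more in 5 (miR-20a, miR-93, miR-130b, miR-322 and miR-674) and the star in 1 (miR-15b), and these counts were equal after centring. In the cytoplasm the star minus guide difference at this step was -2.35 for miR-20a and -1.01 for miR-322. It was -0.62 for miR-93, -0.32 for miR-130b and 0.80 for miR-15b, and the guide well of miR-674 was undetermined in promyelocytes. Over the 12 pairs counted in the cytoplasm, not all the same, r was 0.67. The median difference there was 0.09, against -0.51 in whole cell RNA. miR-22 was the one pair with both strands on card B: miR-22* went from a CT of 36.8 in LSK to 31.2 in granulocytes, and miR-22 from 34.2 to 27.5.

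**Figure D3:**
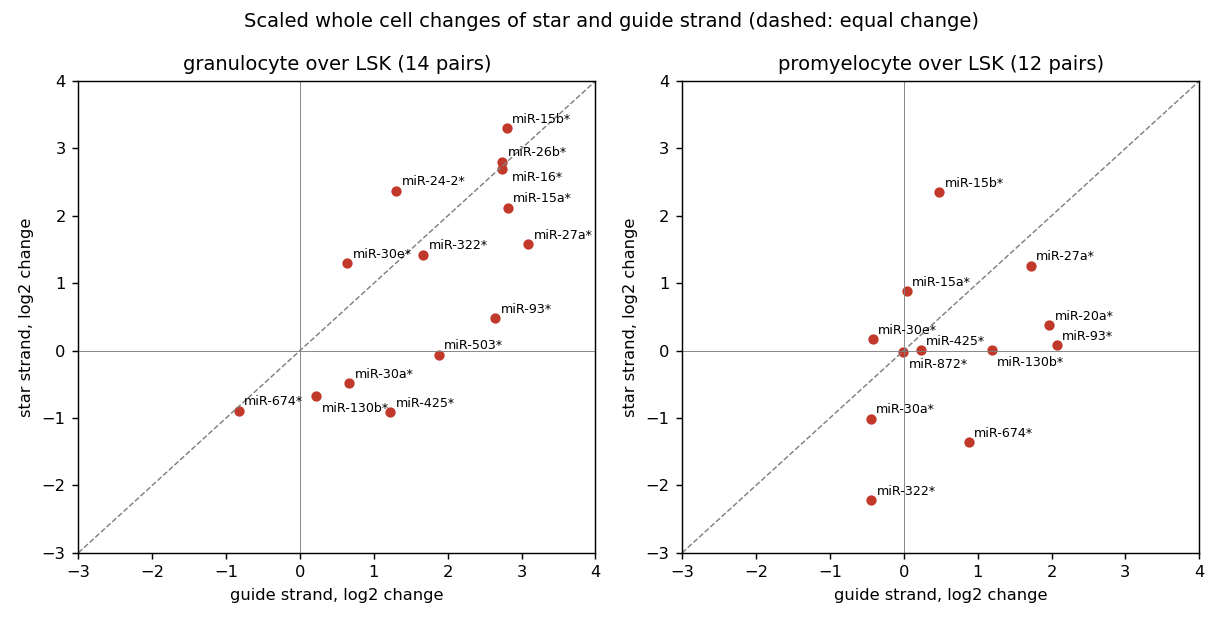
Scaled log2 change of the guide strand (horizontal) and star strand (vertical) in whole cell RNA, for granulocytes over LSK (left, 14 pairs) and promyelocytes over LSK (right, 12 pairs); each point is a hairpin and the dashed line marks equal change. On the left miR-26b* and miR-16* lie at the line, with 2.80 and 2.70 for the star, and miR-93* lies below it at 0.48; on the right miR-15b* is above the line at 2.35 and miR-322* below it at -2.22.

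The name passenger was checked by the CT of star and guide within each sample. These are different assays, on different cards in all pairs but miR-22, so a small gap is not a ratio of the strands. Of the 18 pairs with a star under 30, the star CT was higher than the guide CT in all 4 stages in 12, lower in all 4 in 2, and mixed in 4. The median gap was 1.54 cycles. It was widest for miR-16*, between 9.13 and 10.4 cycles, followed by miR-20a* with 5.78 to 8.13, miR-26b*, and miR-24-2* with 5.07 to 6.19. Over all 42 pairs the star CT was higher in all 4 stages in 32, with a median gap of 3.45 cycles that includes undetermined wells.

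The star CT was the lower in all 4 stages for miR-7a* and miR-674*, whose guide assays were past the limit of 30, so which strand was more abundant cannot be read. miR-7a* was at CTs of 28.34, 27.76, 27.99 and 27.21, the fourth lowest mean CT of all star strands, and the assay of miR-7a was undetermined in LSK and at 33.7, 32.1 and 32.5 in the later stages. miR-674* was at 29.81, 30.92, 30.30 and 30.02, and miR-674 was at 33.8, 32.6, undetermined and 33.9. Both stars also had the lower CT in the 4 cytoplasmic samples, where miR-7a was at 36.2, undetermined, 35.36 and 32.99. The CTs of star and guide were close for miR-130b*, with gaps from -1.12 to 0.07 cycles, for miR-15a* (-1.59 to 0.25) and for miR-872* (-1.02 to 0.10). In the cytoplasm miR-130b* and miR-872* had a lower CT than their guides in all 4 stages. Cytoplasmic miR-15a* was lower in LSK and promyelocytes and practically equal to its guide after them, with 28.579 against 28.5836 in myelocytes and a gap of -0.02 cycles in granulocytes. With the cards centred the star CT was again higher in all 4 stages in 12 pairs.

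**Figure D4:**
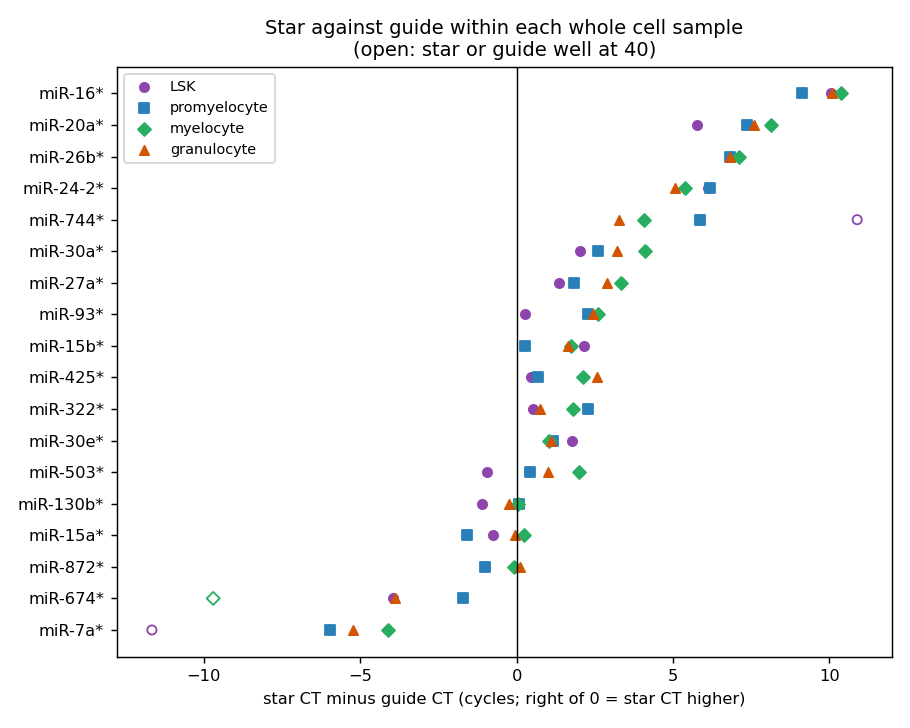
Star CT minus guide CT in cycles (horizontal) for the 18 pairs with a star under 30 (rows), 1 point for each of the 4 whole cell samples; open points rest on a well at 40. Points right of 0 have a higher CT for the star assay than for the guide assay, from miR-16* near 10 cycles down to miR-30e*, and miR-674* and miR-7a* lie left of 0 in all 4 samples.

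The gap between strands changed over the stages in some pairs. It ranged by under 1 cycle in 2 of the 18 pairs, miR-26b and miR-30e, and by 2 cycles or more in 8, of which 3 (miR-7a, miR-674 and miR-744) had a well at 40 and 5 did not. For miR-93 it was 0.28 cycles in LSK and 2.27, 2.60 and 2.44 after it, and for miR-20a 5.78 in LSK and 7.37, 8.13 and 7.58 after it. For miR-425 it was 0.45 and 0.68 in LSK and promyelocytes and 2.11 and 2.58 in the later stages. For miR-15b the opposite held in promyelocytes, with 2.14, 0.28, 1.73 and 1.65 cycles. Mean CTs of the assays under 30 in all 12 samples differed between the cards by -0.73, -0.48, 0.25 and 0.12 cycles (card B minus card A, LSK to granulocytes). With each card centred on its own mean, the star change minus the guide change from LSK to promyelocytes went from -1.99 to -2.18 for miR-93 and from -1.59 to -1.78 for miR-20a. For miR-15b it went from 1.87 to 1.68 at that step. For miR-425 it went from -1.43 to -0.24 between promyelocytes and myelocytes. Beyond these values the part of the card shifts in the gaps was not tested.

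The cytoplasmic samples gave a second reading of the same stages. Between LSK and granulocytes, scaled in the same way, 0 of 17 star strands were higher by 2-fold or more and 12 were lower, where 11.3% and 58.9% of all named assays were. The 3 scaling assays themselves moved by 1.41 cycles in the cytoplasm over this interval, and by 3.27 between promyelocytes and granulocytes. Without scaling 3 star strands were higher, miR-15b* by 1.65, miR-26b* by 2.34 and miR-27a* by 1.77, where 33.9% of named assays were, and 6 were lower, where 34.7% were. The 6 were miR-20a* (-2.97), miR-30a* (-2.54), miR-872* (-2.49), miR-130b* (-2.33), miR-674* (-1.40) and miR-425* (-1.02, log2). In whole cell RNA without scaling, miR-872* changed by -1.52 and miR-20a* by -0.76, miR-425* and miR-674* by -0.23 and -0.21, miR-130b* by 0.0 and miR-30a* by 0.19. Over the 20 star strands under 30, 13 moved in the same direction in whole cell and cytoplasmic RNA from LSK to granulocytes without scaling, and 12 with it. Other intervals ranged more widely. Without and with scaling the numbers were 7 and 15 from LSK to promyelocytes and 14 and 15 from promyelocytes to myelocytes. They were 7 and 6 from myelocytes to granulocytes, and 17 and 7 from promyelocytes to granulocytes.

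Undetermined wells were frequent and in part did not recur in the other RNA sample of a stage. Of 240 whole cell values of star strands 72 were at 40, and the cytoplasm of the same stage was measured in 27 of these, in 17 of them under a CT of 35. The reverse, a cytoplasmic well at 40 with a measured whole cell CT, occurred 13 times. The lowest such cytoplasmic value was that of miR-200a* in promyelocytes, 29.2, with 40 in the whole cells, and miR-28* and miR-33* in promyelocytes and miR-330* in myelocytes were near 32.

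By CT the star strands were lower in the nucleus than in the cytoplasm. Each sample is listed at 100 ng of RNA, while the study describes its nuclear and cytoplasmic CTs as based on cell equivalent volumes. Whether the gap holds per mass of RNA or per cell is therefore not known. All star strands with a cytoplasmic CT under 30, which numbered 15, 10, 12 and 11 from LSK to granulocytes, had a higher CT in the nucleus, as did 98.1%, 96.6%, 100.0% and 100.0% of all named assays. Where the nuclear well was measured the median gap was 5.16, 3.72, 5.10 and 3.41 cycles in the same order. It was 4.23, 3.0, 3.95 and 2.41 for the guides and 4.28, 2.86, 4.12 and 2.60 for all named assays. Card B assays without a star, 11, 11, 12 and 11 in number, had medians of 3.18, 2.85, 4.24 and 2.25. Within a hairpin the gap was wider for the star in 10 of 11, 4 of 6, 7 of 9 and 8 of 9 pairs from LSK to granulocytes, with medians of the difference from 1.09 to 1.65 cycles. The nuclear CTs of star strands lay mostly above 30, and the part of this level and of the card in the wider gap was not tested.

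**Figure D5:**
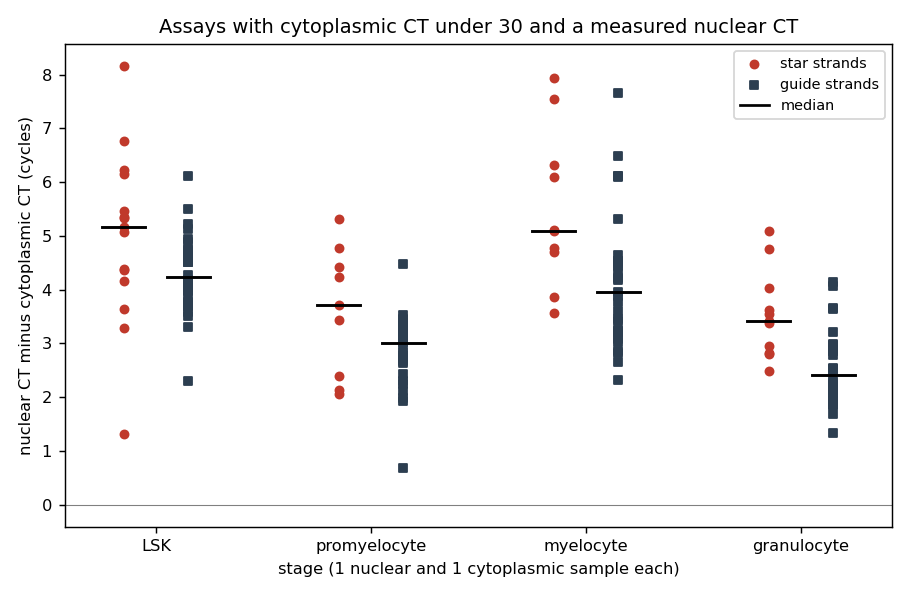
Nuclear CT minus cytoplasmic CT in cycles (vertical) for star strands (circles) and their guides (squares) with a cytoplasmic CT under 30 and a measured nuclear CT, by stage; each point is an assay and black lines are medians. All points lie above 0, and the star medians (5.16, 3.72, 5.10 and 3.41) lie above the guide medians in all 4 stages.

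Nuclear CTs under 30 were found for 3 star strands. miR-93* had 29.80 in LSK and 28.99 in granulocytes, miR-15b* 29.9 in promyelocytes and 29.5 in granulocytes, and miR-30e* 29.8 in granulocytes. Nuclear:cytoplasmic ratios were computed as 2 raised to the cytoplasmic minus the nuclear CT, divided by 3, a divisor inferred from the ratios the study printed and not stated in its methods. They were 0.0161 and 0.0480 for miR-93*, 0.0800 and 0.0271 for miR-15b* and 0.0432 for miR-30e*. Ratios were counted at a nuclear CT under 30. From LSK to granulocytes 1, 1, 0 and 3 star strands and 45, 40, 37 and 57 named assays had such a CT. Of these, 0 star strands passed a ratio of 0.1, where 15.6%, 27.5%, 13.5% and 10.5% of the named assays did. So few star strands allow no comparison of the shares. miR-93*, miR-15b* and miR-30e* passed only if the divisor was left out. The count does not cover the star names set aside by rule, among them miR-135a* and those starting with miR-467. In its follow-up assays the study reported miR-467a* as enriched in the nucleus of LSK and promyelocytes, and miR-135a* in no stage.

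The narrowest gap at a cytoplasmic CT under 30 was that of miR-877*, a strand of a mirtron, a hairpin made by splicing in place of the first cleavage. Its nuclear CT in LSK was 30.3 and its cytoplasmic CT 28.9, a gap of 1.32 cycles and a ratio of 0.134. In promyelocytes the gap was 2.14 cycles, in granulocytes 3.41, and the nuclear well was undetermined in myelocytes, where the cytoplasm gave 28.9. With both CTs under 35, the nuclear CT was below the cytoplasmic CT in 3 cases: miR-744* in promyelocytes (33.2 against 34.3), miR-879* in LSK (33.5 against 34.6) and miR-455* in LSK (34.4 against 34.5). A further 16 cases had at least 1 CT of 35 or more.

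The 40 star strands without a whole cell CT under 30 had a median measured whole cell CT of 34.3, with 70 of their 160 wells undetermined. The lowest CTs among them were those of miR-200a* (29.2) and miR-18a* (29.3) in cytoplasmic promyelocytes, miR-31* (30.2) in cytoplasmic LSK, miR-28* (30.2) in whole granulocytes and miR-193* (30.6) in cytoplasmic myelocytes. Of these 40, miR-193* and miR-22* were measured in all whole cell samples and had lower CTs with maturation, miR-193* from 35.2 and 35.1 in LSK and promyelocytes to 31.4 and 30.9, and miR-22* from 36.8 and 35.6 to 33.7 and 31.2. In the cytoplasm miR-193* was at 33.68, 34.99, 30.60 and 31.26, and miR-22* was undetermined in LSK and at 34.83, 32.24 and 31.43 in the later stages. Other strands of the 40 went the other way in whole cell RNA. Among these, miR-125b* was at 34.3, 36.0 and 37.9 and undetermined in granulocytes. let-7d* was at 33.8 in LSK and 33.6 in promyelocytes and undetermined after them. The let-7 stars, from a family whose guides mark differentiated cells, were 5 in number, with whole cell CTs of 31.5 or more. let-7a* held between 31.5 and 32.7, and let-7b* was undetermined in all whole cell samples. The miR-29 stars were 2, miR-29b* between 31.96 and 33.26, and miR-29c* at 33.9, undetermined, 36.4 and 32.8.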

How the data were processed

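Raw CT values of TaqMan rodent microRNA array cards A and B were deposited by the authors for 12 samples, called with SDS 2.3 and RQ Manager and not normalized; no other measure was used, and all 12 data columns were. An undetermined well is listed at 40. Assays were named by unique match to the cytoplasmic and nuclear CTs the study printed (within 0.0005 cycles), else to its whole cell differences, which followed the CT differences linearly (1.71 per cycle, with a constant for each pair of stages; within 0.002 cycles after that fit) and named miR-130b*, miR-30e*, miR-7a* and miR-872*. Cards were told apart by the number of decimals. The 2 entries under the repeated name let-7i* were not used.

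Changes are CT differences, with those of the mean of the last 3 card B assays taken off (whole cell and cytoplasmic RNA). An assay was tested, meaning counted, at a CT under 30 in either stage, and called at 2-fold. With 1 sample per group there is no test, no depth and no interval. Values were given for each star strand under 30 in whole cell RNA, and the others by ranges with the 5 lowest CTs. The miR-22*, miR-193*, miR-125b*, let-7 and miR-29 stars were added after values were seen. The members and lists were chosen with earlier results of these data known. Alternatives changed the scaling, the CT and fold limits, undetermined wells, the RNA and the divisor. The procedures were tested on simulated data. Tables were handled with pandas 2.3.3 and numpy 2.4.6 in Python 3.11.15, correlations with scipy 1.17.1 and plots with matplotlib 3.10.9.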

Additional observations from a re-analysis of the deposited data

Results flagged for a closer look

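miR-15a* between LSK and promyelocytes moved in opposite directions in the RNA samples of the same stages: its CT change without scaling was 1.13 cycles towards more RNA in whole cells and -1.43 in the cytoplasm. With scaling by the last 3 card B assays both were above 0, at 0.88 and 0.42 (log2). miR-15a* was not alone in this. Over the 20 star strands under 30 in whole cell RNA, 7 moved the same way in both RNA samples at this step without scaling, and 15 with it. Without scaling 14 were higher in whole cells and 3 in the cytoplasm. The difference was not tested, as each is 1 sample.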

How the results depend on the processing

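No paired analysis was possible because each stage and fraction is 1 sample. The number of star strands with a 2-fold difference between any stages, 15, was 5, 23 and 40 at CT limits of 28, 32 and 35. Higher in granulocytes than LSK, 9 became 5 at 28, 15 at 35 and 0 in cytoplasmic RNA; lower, 0 became 3 at 32, 9 at 35, 3 at a fold limit of 1.5 and 12 in cytoplasmic RNA. Higher in granulocytes than promyelocytes, 9 became 4 at 28, 19 at 35 and 0 in cytoplasmic RNA; lower, 2 became 0 at 28, 5 at 32, 8 at 35, 5 at 1.5-fold and 13 in cytoplasmic RNA. Higher in promyelocytes than LSK, 2 became 1 with the card B mean, 1 at 28, 4 at 32, 9 at 35, 4 at 1.5-fold, 1 at 3-fold and 6 in cytoplasmic RNA; lower, 3 became 0 at 28, 7 at 32, 14 at 35, 1 at 3-fold and 1 in cytoplasmic RNA. Without scaling the cytoplasmic counts for granulocytes against LSK, 0 and 12, were 3 and 6. The pairs moving the same way, 10 of 14, were 16 of 23 with both strands under 35, and the median star minus guide change, -0.47, was 0.51 with centred cards. The nuclear gap was 0.78, 0.85, 0.40 and 0.46 cycles relative to the card B median, and 4.38 in LSK and 3.96 in myelocytes at a cytoplasmic CT under 32. Ratios over 0.1 went from 0 to 3 without the divisor, 2 at a nuclear CT under 32 and 12 under 35. Star strands under the limit were 7 at 28 and 46 at 35. A looser match of names, within 0.005 cycles, left 59 star strands. The other 50 alternatives kept a count within 1.5 times, or a median within a 1.5-fold shift; among them the star minus guide median was -0.84 with both strands under 35. The cause of these shifts was not tested. Each assay was 1 well, so the error of a CT is unknown, and most star strands lay where wells fail.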
